A study of Mus musculus with 24 samples.

Results

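Counts of 10 long noncoding RNAs were followed in the hippocampus of control littermates and CBP-ifKOs, among 55471 genes counted. The genes are 4921539H07Rik, Gm26644, Meg3, Rian, Mirg, Malat1, Neat1, Miat, Snhg11 and Snhg14. All 10 were found in the count matrix by symbol, and all 10 passed the filter on low counts in each fit. 4921539H07Rik and Gm26644 were chosen by their measured decrease in CBP-ifKOs: both stand in the study's list of downregulated genes, which used the standard-cage mice analyzed here, and 4921539H07Rik also stands in a list made from all 12 mice. Their differences between genotypes are therefore given as a description in every comparison, with no test. The other 8 are long noncoding RNAs known from brain. They are often called neuronal, but whole-tissue counts do not show which cells carry an RNA, so they are called here by their names.

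RNA was sequenced from 12 female C57BL/6J mice of 3 to 6 months, with 3 mice in each of 4 groups. Control SC and CBP-ifKO SC mice lived in standard cages, and Control EE and CBP-ifKO EE mice lived in enriched cages with running wheels and toys. CBP-ifKOs carry floxed alleles of Crebbp and an inducible Cre under the Camk2a promoter, which is active in excitatory neurons of the adult forebrain, so other hippocampal cells keep the gene. Controls are littermates without Cre, and both genotypes received 5 administrations of tamoxifen at 20 mg/mL. In bulk tissue, fewer cells of a type and less RNA per cell cannot be told apart.

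CBP, the product of Crebbp, is a lysine acetyltransferase that is recruited by CREB and other transcription factors and that acetylates histones at promoters and enhancers. Long noncoding RNAs are transcribed and spliced like messenger RNAs, but act, where a role is known, as RNA. Meg3, Rian and Mirg are transcribed in the same direction from the maternal copy of the imprinted Dlk1-Dio3 region, and Rian and Mirg contain small nucleolar RNAs and microRNAs. Snhg14 comes from the paternal copy of the Snrpn-Ube3a region, where it runs antisense to the ubiquitin ligase gene Ube3a. Malat1 resides in nuclear speckles, Neat1 is the scaffold of paraspeckles, Miat forms nuclear domains of its own in neurons, and Snhg11 is a host of small nucleolar RNAs that is abundant in brain. No role is stated here for 4921539H07Rik and Gm26644.

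The libraries held between 26874015 and 27971488 counts in controls and between 28582210 and 37448388 in CBP-ifKOs, and the 10 RNAs took 0.974% to 1.245% of a library. Crebbp was at 69.6 to 81.9 CPM (counts scaled to the normalized library size) in controls and at 44.5 to 51.6 in CBP-ifKOs. None of the 148570 nonzero counts in CBP-ifKOs was odd, against 54.6% of those in controls, so the genotypes differ in how counts were made as well as in CBP. If reads of the CBP-ifKOs were counted more than once, which was not tested, their counts and the floor of 3 counts stand for fewer reads than they show. No call among the 8 RNAs not chosen by their values was lost or gained when the CBP-ifKO counts were halved. Control EE 1 stood apart in Ttr, a transcript of choroid plexus, with 1129 CPM against 4.06 to 32.3 in the other 11 libraries.

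Both RNAs chosen by their decrease are lincRNA genes of the GRCm38 annotation. 4921539H07Rik lies at chr3:58117053-58167616 on the plus strand, and its 4325 exonic bases include 214 that it shares with 1700007F19Rik on the opposite strand. Gm26644 lies at chr19:44685811-44695460 on the minus strand, with 2986 exonic bases and no exonic overlap with another gene. Reads from opposite strands cannot be told apart where exons overlap, since the strand setting of the counting is not given in the sources used here. The overlap took 24.3% of the exonic bases of Miat, 6.91% of those of Snhg14 (with Ube3a), 6.79% of those of Meg3 and 6.49% of those of Malat1. Rian, Mirg, Neat1 and Snhg11 share no exonic base with a gene on the other strand.

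Because CREB recruits CBP, the RefSeq promoters of these RNAs in GRCm38.p6 (250 bases before to 50 after the start) were searched on both strands for the full cyclic AMP response element TGACGTCA, its shorter core TGACG, the AP-1 element TGANTCA and the TATA box TATAAA. The table held a promoter for 8 of the 10. Those of 3 are shown, each 5′ to 3′ on the strand of its gene, because they are the ones that held a match to the response element or its core. Here capitals mark those matches. They are Gm26644, which was low in CBP-ifKOs (chr19:44695431-44695730, minus strand), Meg3 (chr12:109540746-109541045, plus strand) and Malat1 (chr19:5802623-5802922, minus strand).
Gm26644: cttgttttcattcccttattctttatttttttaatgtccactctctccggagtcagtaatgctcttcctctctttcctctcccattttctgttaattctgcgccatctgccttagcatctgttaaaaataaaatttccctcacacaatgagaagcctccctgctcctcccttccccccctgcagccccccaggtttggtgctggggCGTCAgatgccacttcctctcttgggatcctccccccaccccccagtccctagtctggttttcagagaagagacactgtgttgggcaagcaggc
Meg3: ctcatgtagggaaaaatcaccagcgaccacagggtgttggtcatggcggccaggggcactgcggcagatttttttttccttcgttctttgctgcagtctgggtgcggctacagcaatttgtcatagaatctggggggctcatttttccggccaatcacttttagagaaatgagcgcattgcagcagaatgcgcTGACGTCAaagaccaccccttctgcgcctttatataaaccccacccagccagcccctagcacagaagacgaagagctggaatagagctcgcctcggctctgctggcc
Malat1: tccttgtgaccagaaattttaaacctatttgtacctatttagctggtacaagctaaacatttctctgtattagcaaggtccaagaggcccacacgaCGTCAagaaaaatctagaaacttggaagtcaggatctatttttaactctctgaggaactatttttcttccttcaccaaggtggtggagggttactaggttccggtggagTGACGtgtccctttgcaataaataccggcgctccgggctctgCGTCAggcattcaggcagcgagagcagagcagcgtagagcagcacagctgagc

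The Gm26644 promoter held 1 core element, on the opposite strand, with its first base 44 bases before the start, as 20.8% of all 32851 promoters in the table hold at least 1. Meg3 held the only full element among these promoters, 57 bases before the start, which 1.79% of all promoters hold, together with TATAAA on each strand at 29 and 25 bases before the start (13.6% of all promoters). The full element contains the core on both strands. Malat1 held 3 core elements, at 154, 45 and 3 bases before the start. No promoter of Rian, Mirg, Miat, Snhg11 or Snhg14, nor a second Meg3 promoter, held the response element or its core in this window, and the AP-1 element (7.81% of all promoters) matched in none of the 8. The RefSeq start is not always that of the gene counted: for Snhg14 it lies 474418 bases upstream of the counted gene, and for Mirg 5217, for the second Meg3 promoter 4397 and for Miat 447 bases inside it. A match is a run of letters, not a bound site. Meg3 and Malat1, which hold these letters, did not pass the test between genotypes (values follow).

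Per kilobase of the exon length in the deposited file, the levels of the 10 RNAs spanned more than 2 orders of magnitude. In Control SC the order was Snhg11 at 392 ± 24.8 CPM per kilobase (SD, n = 3), Meg3 at 294 ± 52.4, Miat at 98.8 ± 7.12, Malat1 at 72.7 ± 13.0, Rian at 22.2 ± 0.996, Neat1 at 8.15 ± 0.390, Gm26644 at 5.75 ± 0.701, Mirg at 4.27 ± 0.171, Snhg14 at 4.04 ± 0.388 and 4921539H07Rik at 1.10 ± 0.266. Mirg and Snhg14 were the only neighbours in this order whose ranges over mice overlapped. The order was the same in Control EE, where Miat and Malat1 also overlapped.

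In CBP-ifKOs, Gm26644 moved from the place above Mirg and Snhg14 to the place below both, at 2.07 ± 0.340 CPM per kilobase in SC and 1.35 ± 0.119 in EE, without overlap with either. Malat1 stood above Miat in CBP-ifKO EE, at 90.0 ± 9.86 against 74.2 ± 7.72 CPM per kilobase, but their ranges overlapped. The remaining places were unchanged apart from Mirg and Snhg14, which overlapped in each group. Without division by length, Meg3 came first, at 5326 ± 949 CPM in Control SC, and Snhg11 second, at 3340 ± 212. The file's length of Rian is 31981 bases against 18234 in the GENCODE annotation, and with the shorter length Rian ranged from 33.0 to 41.1 CPM per kilobase over the 12 mice, which leaves its place the same.

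**Figure D1:**
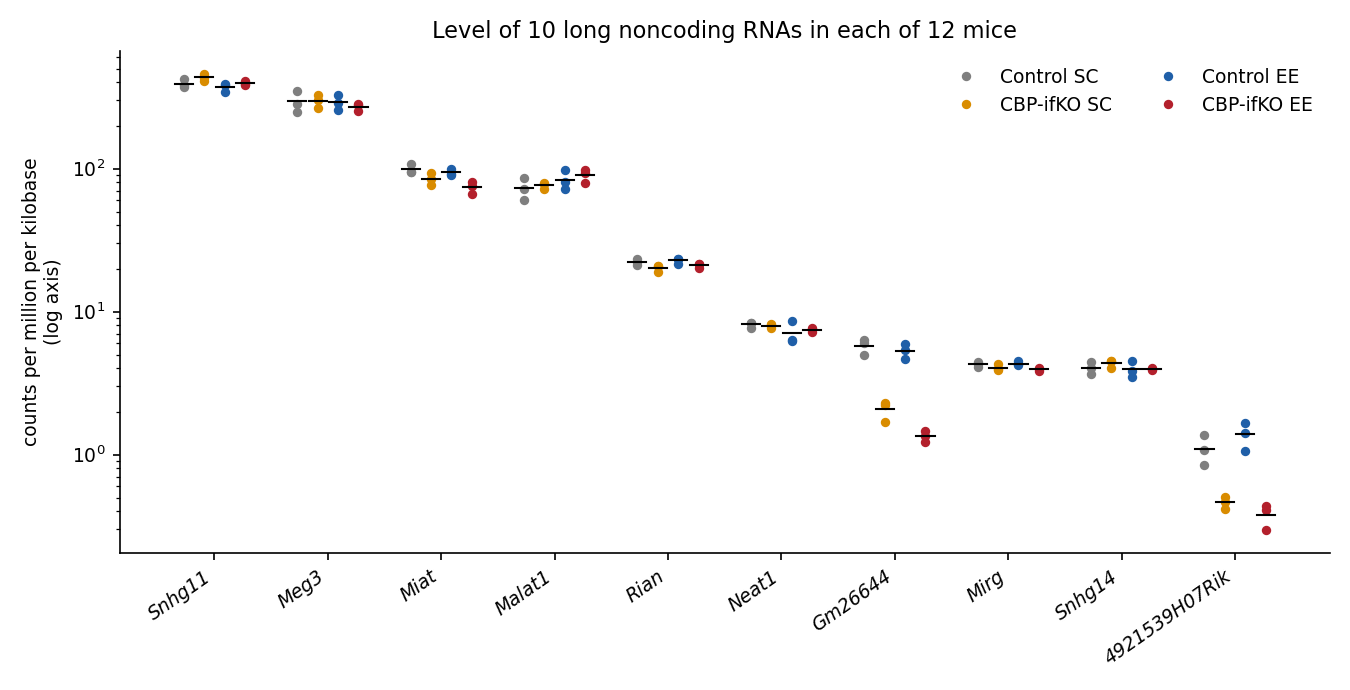
Each point is 1 mouse and each black bar a group mean, with CPM per kilobase of exon on a log axis and the 10 RNAs in the order of Control SC. Gm26644 and 4921539H07Rik are the only ones whose CBP-ifKO points lie well below their control points, while Mirg and Snhg14 overlap in every group.

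4921539H07Rik was low in every mouse and lowest in CBP-ifKOs. It was measured at 4.68, 5.93 and 3.63 CPM in Control SC and at 2.03, 1.80 and 2.17 in CBP-ifKO SC, which is 100 to 157 counts against 52 to 82 (26 to 41 if halved). In EE the 3 controls were at 4.59, 6.10 and 7.24 CPM and the 3 CBP-ifKOs at 1.29, 1.76 and 1.88. The genotypes did not overlap in either housing: the group means were 2.36-fold lower in SC (log2 -1.24, SE 0.20) and 3.62-fold lower in EE (log2 -1.86, SE 0.22). These values describe the choice of the gene and were not tested.

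Gm26644 was several times more abundant, and the size of its difference was not compared with that of 4921539H07Rik by a test. Control SC mice had 17.9, 14.8 and 18.8 CPM, against 5.02, 6.65 and 6.89 in CBP-ifKO SC mice. In SC, the comparison that chose it, the level was 2.78-fold lower in CBP-ifKOs (log2 -1.47, SE 0.14), with no overlap. In EE the 3 controls had 16.1, 13.8 and 17.6 CPM and the 3 CBP-ifKOs 3.67, 4.38 and 4.05, which is 3.91-fold lower (log2 -1.97, SE 0.13), again without overlap. The gene entered this set as one that was low in CBP-ifKOs, with the levels of all 4 groups known, so these values too are a description and were not tested.

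**Figure D2:**
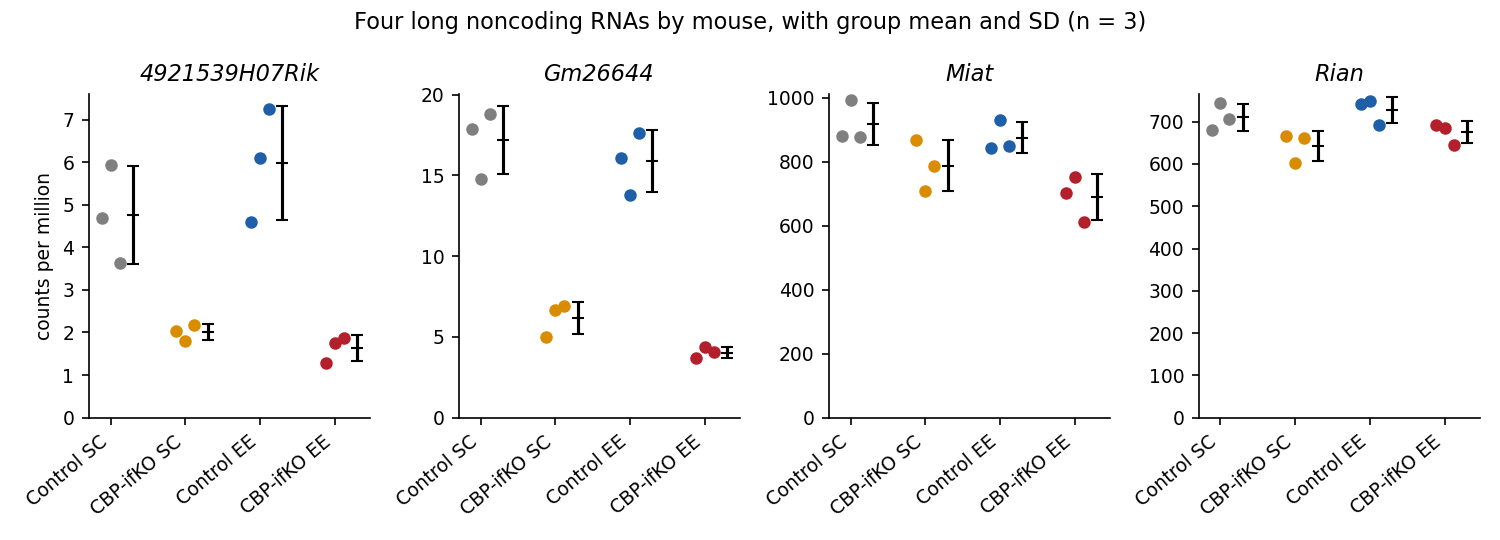
CPM of 4 RNAs in each mouse (points), with the group mean and SD (n = 3) beside them, on axes that start at 0. The CBP-ifKO points of 4921539H07Rik and Gm26644 lie below all controls, whereas Miat and Rian differ by a small share of their level.

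Among the 2008 genes of long noncoding types that were tested over all 12 mice, Gm26644 had the 3rd lowest log2 difference and 4921539H07Rik the 5th lowest. These ranks include the values that chose both genes. In that comparison, which averages the genotype difference over housing, 6.87% of the long noncoding genes and 19.2% of the protein-coding genes passed the threshold. The long noncoding genes split into 44 higher and 94 lower, but into 89 higher and 76 lower with library totals in place of TMM, a scaling that moved the median of all genes from 0.003 to 0.066. In SC alone 34 long noncoding genes passed (1.89% of 1797) and in EE 35 (1.94% of 1806), against 6.23% and 5.16% of protein-coding genes. Over all mice the filter kept 2008 of 9914 long noncoding genes and 14996 of 21897 protein-coding genes. Levels were not matched between the types, so these shares do not compare their dependence on CBP.

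Over the 12 mice the gene most like Gm26644 in log2 CPM was C1ql2, a secreted C1q-like protein of dentate granule cells, with Pearson's r = 0.992. Pea15a (r = 0.984) and Anp32a (r = 0.983) came next. For 4921539H07Rik the most alike were Apba2 (r = 0.974), Pbxip1 (r = 0.971) and Dpp6 (r = 0.966). Each of these 6 genes had a negative log2 difference between genotypes, and the points share the 4 groups, so these values describe a common difference between groups. C1ql2 fell from 56.2 to 76.7 CPM over the controls to 14.7 to 25.6 over the CBP-ifKOs, with a log2 difference of -1.76 beside -1.72 for Gm26644. The 2 long noncoding RNAs had r = 0.914 with each other, which put 4921539H07Rik at rank 204 among genes like Gm26644.

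With group means removed, the 2 RNAs had r = -0.09, and other genes came first. For Gm26644 these were Fam19a5 (r = 0.950), Ppp1r14b (r = 0.933) and Psmb5 (r = 0.932), and for 4921539H07Rik they were Prl (r = 0.948), Abcc9 (r = 0.926) and Gm43545 (r = 0.923). Prl had 0 to 75 counts per library, so its values rest on few counts.

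Markers of hippocampal cell types moved with genotype beside these RNAs. All defining markers were detected, with none at 0. Over all 12 mice, 4 of 6 markers of dentate granule cells were downregulated, 4 of 5 of CA1, 3 of 4 each of CA2 and CA3, and 3 of 8 of excitatory neurons, beside 16.9% of all 18251 genes called in either direction. Decreases were not confined to neuronal markers. Downregulated were 3 of 3 markers of oligodendrocyte precursors, 2 of 6 each of astrocytes and microglia and 1 of 5 of endothelial cells. So was 1 of 6 of choroid plexus (Ttr), against 0 of 6 of oligodendrocytes. Ttr was far higher in Control EE 1 than elsewhere. It was also downregulated in SC (log2 -1.70), at 20.7 to 26.1 CPM in controls and 6.02 to 7.73 in CBP-ifKOs. Of 7 interneuron markers, 1 was lower and 1 higher. The summed level of the 6 dentate markers was 539 to 574 CPM in Control SC, 465 to 513 in CBP-ifKO SC, 513 to 613 in Control EE and 443 to 447 in CBP-ifKO EE. The summed level of the 5 CA1 markers was 726 to 822, 565 to 570, 768 to 835 and 547 to 564 CPM in the same order. Their part in the lower levels of Gm26644 and 4921539H07Rik was not tested.

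No coding gene tested around these RNAs differed by a similar size. 4921539H07Rik has no coding gene within 247099 bases on either side. The nearest upstream is Pfn2, which encodes the neuronal actin-binding protein profilin-2, on the opposite strand and 268974 bases away, followed by Rnf13. The nearest downstream is Tsc22d2, 247099 bases away, followed by Serp1. Around Gm26644 the nearest coding gene is Pax2, a developmental transcription factor, 60585 bases upstream on the opposite strand, then Slf2 on the same side and Hif1an and Ndufb8 on the other, 109537 and 130371 bases away.

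Pfn2 was the only one of these 8 neighbours past the threshold, and only over all 12 mice, where 16.9% of all genes passed. It was at 631 to 704 CPM in Control SC, 588 to 614 in CBP-ifKO SC, 665 to 707 in Control EE and 632 to 645 in CBP-ifKO EE, so the groups did not overlap within a housing. Pfn2 fell by 0.13 on the log2 scale over the 12 mice (SE 0.03, adjusted p = 0.0139, edgeR's quasi-likelihood test), but the adjusted p was 0.126 in SC and 0.291 in EE, and 0.163 over the 12 mice without TMM scaling. The 8 neighbours lay between -0.13 and 0.11, with a median of -0.01, beside 0.003 over all genes. In SC and in EE, 0 of the 7 neighbours tested passed, beside 5.52% and 4.57% of all genes. So few neighbours cannot be told apart from these shares.

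Pax2 was near the limit of detection. Its level was 0.0726 to 0.408 CPM in Control SC, 0.0598 to 0.371 in CBP-ifKO SC, 0.147 to 0.183 in Control EE and 0.155 to 0.374 in CBP-ifKO EE, where 3 counts correspond to 0.0801 to 0.112 CPM. A difference in Pax2 of the size seen for Gm26644 is outside the 95% interval of -1.14 to 1.05 on the log2 scale, but smaller ones were not detectable at this depth. Slf2 (log2 0.11, adjusted p = 0.153 by edgeR's quasi-likelihood test over all mice) and Tsc22d2 (log2 0.10, adjusted p = 0.102) did not pass. Among the fits with 1 mouse left out, both passed without Control EE 2, and Slf2 also without Control SC 2.

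**Figure D3:**
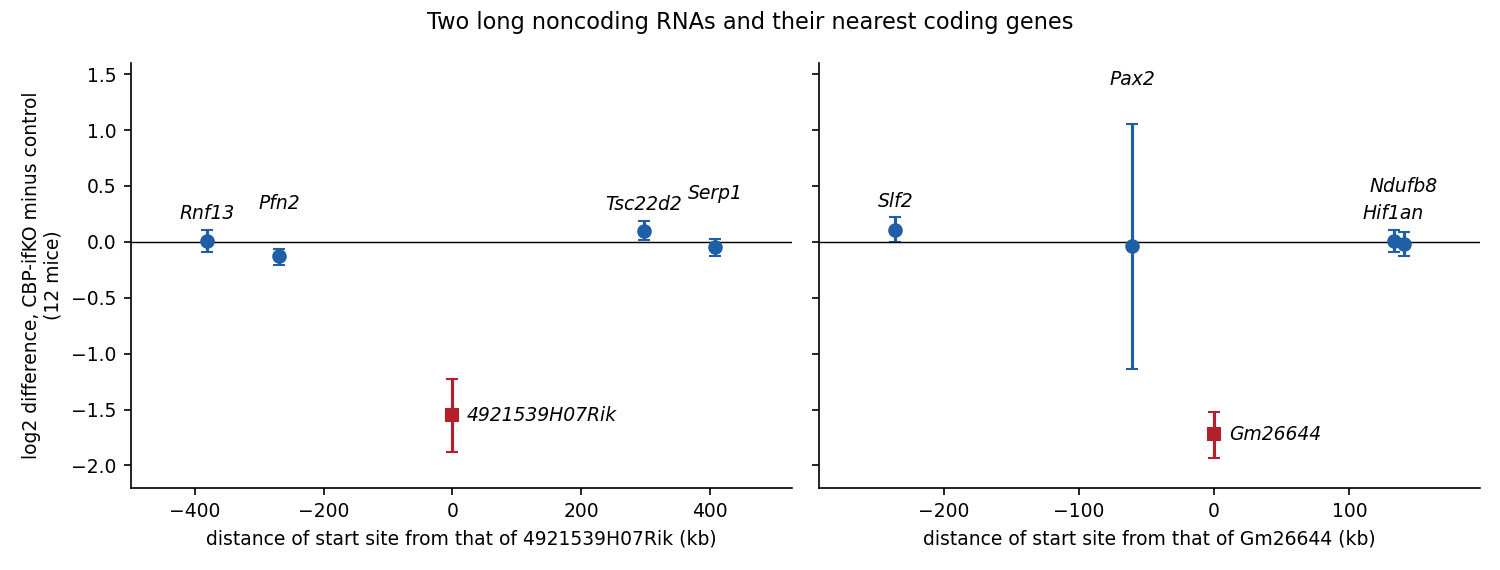
Log2 difference between genotypes over 12 mice (points, with 95% intervals) against the distance in kilobases between start sites, negative upstream, for 4921539H07Rik and Gm26644 (squares) and their 2 nearest coding genes on each side (circles). The neighbours lie near 0, with a wide interval for Pax2, and both RNAs lie below -1.

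Of the other 8 RNAs, none passed the threshold between genotypes in SC (5.52% of all 17532 genes tested did), 1 did in EE (4.57% of 17625) and 2 did over all 12 mice (16.9% of 18251). Over all genes these calls were 264 higher and 704 lower in SC, 182 and 623 in EE, and 1211 and 1871 over all mice, against 607 and 480, 524 and 425, and 2937 and 1275 without TMM, so the directions of small differences rest on the scaling. Miat was the RNA that passed in EE, and Miat and Rian passed over all mice. All 3 calls were decreases, and both RNAs were also lower without TMM. The median log2 difference of these 8 RNAs over all mice was -0.008, beside 0.003 over all genes.

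Miat was measured at 881, 994 and 878 CPM in Control SC and at 868, 709 and 785 in CBP-ifKO SC. In EE its level was 844, 930 and 850 CPM in controls and 703, 753 and 612 in CBP-ifKOs. The groups did not overlap within a housing. Miat was 1.26-fold lower in CBP-ifKO EE (log2 -0.33, SE 0.08, adjusted p = 0.0289, edgeR's quasi-likelihood test) and 1.22-fold lower over all mice (log2 -0.28, SE 0.06, adjusted p = 0.00332), while in SC the difference of -0.22 (SE 0.07) had an adjusted p of 0.112. The call over all mice held in all 19 alternatives, with adjusted p from 2.84e-10 to 0.0115. The call in EE was lost without Control EE 2 (adjusted p = 0.0563), Control EE 3 (0.0815), CBP-ifKO EE 1 (0.0748) or CBP-ifKO EE 3 (0.124), and without TMM scaling (0.0557).

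Rian, the host of a large small nucleolar RNA cluster, differed less but varied little between mice. Its level was 680, 744 and 707 CPM in Control SC, 667, 602 and 661 in CBP-ifKO SC, 741, 750 and 693 in Control EE and 693, 686 and 645 in CBP-ifKO EE. Every CBP-ifKO SC mouse lay below every Control SC mouse, whereas CBP-ifKO EE 1 and Control EE 3 met at 693 CPM. Over all mice Rian fell by 0.13 on the log2 scale (SE 0.04, adjusted p = 0.0354, edgeR's quasi-likelihood test), a difference of 8.4%. This call was lost without any 1 of Control SC 2, Control SC 3, CBP-ifKO SC 2, Control EE 1, Control EE 2 and CBP-ifKO EE 3 (adjusted p from 0.059 to 0.0993), and without TMM scaling (log2 -0.06, adjusted p = 0.261).

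Snhg11 was on the other side of 0. Control SC mice had 3174, 3579 and 3267 CPM and CBP-ifKO SC mice 3936, 3467 and 3682, and in EE controls had 3251, 3323 and 2910 and CBP-ifKOs 3495, 3316 and 3290. The groups overlapped in both housings. Over all mice the log2 difference was 0.12 (SE 0.04, adjusted p = 0.0723, edgeR's quasi-likelihood test), which does not pass, but DESeq2 gave an adjusted p of 0.0427, and edgeR gave 0.024 without Control SC 2, 0.041 without Control EE 2, 0.0489 with a filter of 1 CPM in 3 mice and 0.00675 without TMM. The annotation lists Snhg11 as protein coding and Rian and Snhg14 as processed transcripts.

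The 5 remaining RNAs did not pass in any comparison of genotypes, and their 95% intervals bound the differences that these mice allow. Over all mice the interval on the log2 scale was -0.21 to 0.12 for Meg3, -0.20 to -0.01 for Mirg (unadjusted p = 0.0307, adjusted p = 0.121 by edgeR's quasi-likelihood test), -0.09 to 0.27 for Malat1, -0.11 to 0.17 for Neat1 and -0.07 to 0.19 for Snhg14. Each interval excludes a change by a factor of 2. Mirg had the smallest spread between mice of the 10, at 30.0 to 32.5 CPM in Control SC, 28.6 to 31.4 in CBP-ifKO SC, 30.7 to 32.9 in Control EE and 27.8 to 29.3 in CBP-ifKO EE, where the EE groups did not overlap. Meg3, which shares its direction of transcription and region with Rian and Mirg, ranged from 4486 to 6355 CPM over the controls and from 4584 to 5914 over the CBP-ifKOs.

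**Figure D4:**
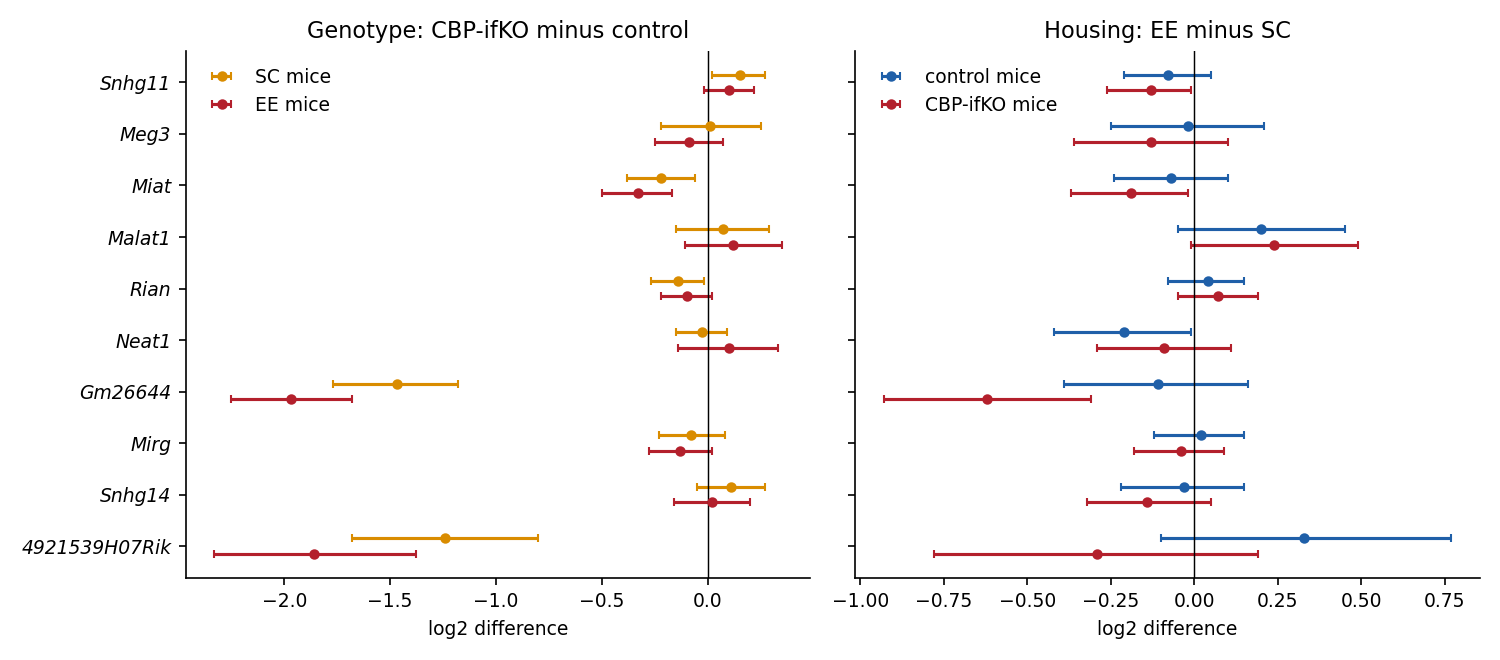
Log2 differences with 95% intervals for the 10 RNAs, CBP-ifKO minus control on the left (SC and EE mice) and EE minus SC on the right (control and CBP-ifKO mice). Of the 8 RNAs not chosen by their values, Miat has genotype intervals below 0 in both housings, and the housing intervals below 0 are those of Miat and Snhg11 in CBP-ifKOs and of Neat1 in controls, none of which passed for housing after adjustment. Gm26644 and 4921539H07Rik are drawn as a description.

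The spread between mice differed among the RNAs. The SD of log2 CPM around the group means, pooled over groups, was 0.285 for 4921539H07Rik, 0.191 for Malat1, 0.188 for Gm26644, 0.176 for Meg3, 0.142 for Neat1, 0.125 for Snhg14, 0.124 for Miat, 0.086 for Snhg11, 0.067 for Rian and 0.058 for Mirg. The median over all 18251 genes was 0.134. A difference of a given size was therefore more easily called in Rian and Mirg than in Meg3 or Malat1.

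The coding genes of the Dlk1-Dio3 region were compared next to Meg3, Rian and Mirg. Of 6 coding genes, 0 passed in SC or in EE and 2 passed over all mice, both lower, beside 5.52%, 4.57% and 16.9% of all genes. Dio3, the deiodinase that inactivates thyroid hormone, was at 4.05, 8.92 and 9.33 CPM in Control SC, 4.01, 2.77 and 6.09 in CBP-ifKO SC, 6.28, 6.56 and 3.73 in Control EE and 4.96, 1.98 and 1.76 in CBP-ifKO EE. The groups overlapped. Its log2 difference was -0.85 (SE 0.27, adjusted p = 0.044, edgeR's quasi-likelihood test), which passed in 9 of 19 alternatives. The call was lost without Control SC 2 or 3, CBP-ifKO SC 1 or 2, Control EE 1 or 2, or CBP-ifKO EE 2 or 3, and also by DESeq2 (adjusted p = 0.0777) and without TMM scaling (0.0507). Ppp2r5c, a phosphatase subunit gene, differed by -0.10 (adjusted p = 0.0373) and passed in 7 of 19. Rtl1 and Dlk1, the coding genes nearest to Meg3, had log2 differences of 0.00 (SE 0.07) and -0.12 (SE 0.25).

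Around Snhg14, 9 coding genes of the Snrpn-Ube3a region were tested. Of these, 1 was lower in SC and 1 in EE, and over all mice 1 was higher and 2 were lower. Over all genes 5.52%, 4.57% and 16.9% passed. Ube3a, whose exons overlap Snhg14 on the opposite strand, was at 88.9 to 104 CPM in controls and 91.2 to 108 in CBP-ifKOs (log2 0.04, SE 0.05), and Snrpn, which lies upstream on the same strand, differed by -0.05 (SE 0.04). Gabra5, a GABA-A receptor subunit gene further along the region, was downregulated in SC (log2 -0.54, SE 0.06, adjusted p = 0.000447, edgeR's quasi-likelihood test), in EE (log2 -0.57, SE 0.06, adjusted p = 0.000696) and in all 19 alternatives over all mice. Gabrg3, a second subunit gene of the same receptor, differed by -0.18 over all mice (adjusted p = 0.0195) and passed in 16 of 19. Atp10a, the nearest coding gene downstream, was upregulated over all mice (log2 0.35, SE 0.10, adjusted p = 0.0228), a call lost without Control EE 1 or CBP-ifKO EE 3.

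None of the 5 coding genes near Malat1 and Neat1 passed between genotypes. Over all genes, 5.52% passed in SC, 4.57% in EE and 16.9% over all mice. Of 14 paraspeckle protein genes, 2 were upregulated over all mice, with a median log2 difference of 0.00 for the list. These 2 are 14.3% of the list, below the 16.9% of all genes that passed. They were the cold-inducible RNA-binding protein gene Rbm3 (0.29, SE 0.06, adjusted p = 0.00536, edgeR's quasi-likelihood test), which also passed in SC, and Pspc1 (0.20, SE 0.06, adjusted p = 0.0353), which passed in 10 of 19 alternatives. Nono and Sfpq, the core proteins that hold Neat1 in paraspeckles, had log2 differences of 0.01 (SE 0.03) and 0.01 (SE 0.05). Of 14 genes for speckle and splicing factors, 2 passed over all mice, again 14.3% beside 16.9% of all genes. Celf3 was downregulated (-0.25, SE 0.04, adjusted p = 0.00113 by edgeR's quasi-likelihood test, and 0.0159 in EE). Srsf11 passed upwards at 0.14 (adjusted p = 0.0478), and in 8 of 19 alternatives. Celf3 encodes a splicing factor reported to bind Miat, and both were lower in CBP-ifKOs, but a link between the 2 was not tested.

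A further list of long noncoding RNAs known from brain or from many tissues served for comparison. Of its 47 symbols 40 were in the file and 33 were tested. Over all mice 3 were higher and 5 lower, with a median of 0.03, which is 24.2% of those tested beside 16.9% of all genes and 6.87% of the long noncoding genes. Firre, an X-linked RNA that organizes nuclear contacts, was upregulated from 90.8, 114 and 100 CPM in Control SC to 137, 132 and 141 in CBP-ifKO SC, and from 98.7, 117 and 101 in Control EE to 128, 139 and 125 in CBP-ifKO EE, with an adjusted p of 0.00722 in SC and 0.0366 in EE by edgeR's quasi-likelihood test. Peg13, a paternally expressed imprinted RNA, was higher over all mice (0.17, SE 0.03, adjusted p = 0.00377).

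In the other direction, 3 RNAs of this list were downregulated in both housings. Within each housing 1 of the 33 tested was higher and 3 were lower (12.1%). Over all genes 5.52% passed in SC and 4.57% in EE. Pantr1, transcribed next to the neuronal transcription factor gene Pou3f3, was at 45.6 to 52.2 CPM in Control SC against 37.4 to 38.2 in CBP-ifKO SC, and at 53.2 to 59.9 in Control EE against 33.6 to 43.4 in CBP-ifKO EE. D430019H16Rik fell by 0.40 on the log2 scale in SC and by 0.45 in EE, and C130071C03Rik fell by 0.20 and by 0.31. With Firre and Peg13, these 5 RNAs were picked from those called over all mice because their genotypes did not overlap. The lack of overlap therefore follows from the choice, and its share over all genes was not counted. Their calls over all mice held in all 19 alternatives. Gas5, Pvt1 and Ftx passed over all mice at -0.14, -0.22 and 0.13, but in only 10, 8 and 11 of the 19.

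Housing moved none of the 8 RNAs not chosen by their values past the threshold. Of 18251 genes tested, 0% passed in control mice (0 genes, against 768 at an unadjusted p under 0.05 by edgeR's quasi-likelihood test and 15 called by DESeq2), 0.0110% in CBP-ifKOs (2 genes) and 0.164% over both genotypes (30 genes). Among these 8 RNAs the median log2 difference was -0.026 in controls, -0.113 in CBP-ifKOs and -0.080 over both, beside 0.001, -0.003 and -0.001 over all genes.

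Gm26644 had the largest housing difference of the 10, in CBP-ifKOs. The 3 CBP-ifKO EE mice, at 3.67 to 4.38 CPM, lay below the 3 CBP-ifKO SC mice, at 5.02 to 6.89, and the log2 difference was -0.62 (SE 0.15). Over both genotypes the log2 difference was -0.37 (SE 0.10). In controls the difference was -0.11 (SE 0.13), and the interaction, which compares the housing differences of the genotypes, was -0.50 (SE 0.19). 4921539H07Rik differed by 0.33 (SE 0.20) in controls and by -0.29 (SE 0.23) in CBP-ifKOs, with overlapping groups. The mice compared here took part in choosing both RNAs, so these values are a description with no test.

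Malat1 and Neat1, which lie next to each other and share neighbours, went in opposite directions without passing. Malat1 was at 418, 599 and 506 CPM in Control SC and at 506, 680 and 560 in Control EE, and at 543, 505 and 551 in CBP-ifKO SC and 552, 648 and 685 in CBP-ifKO EE. The CBP-ifKO groups did not overlap, the control groups did. Over both genotypes the log2 difference was 0.22 (SE 0.08, adjusted p = 0.42, edgeR's quasi-likelihood test). Neat1 was at 174, 174 and 160 CPM in Control SC and at 179, 131 and 129 in Control EE. Control EE 1, the library with 1129 CPM of Ttr, was the highest of all 12 in Neat1. Without it the log2 difference in controls went from -0.21 (SE 0.09) to -0.38, with an adjusted p of 0.0471. In CBP-ifKOs, Neat1 was at 159 to 170 CPM in SC and 150 to 159 in EE.

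The interaction of genotype and housing passed for none of these 8 RNAs and for 0% of the 18251 genes (574 had an unadjusted p under 0.05 by edgeR's quasi-likelihood test, and DESeq2 also called 0). The log2 interactions ranged from -0.63 for 4921539H07Rik (SE 0.31) to 0.12 for Neat1 (SE 0.13). For Miat, which passed between genotypes in EE and not in SC, the interaction was -0.12 (SE 0.12), so the 2 housings were not shown to differ.

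The deviations of each mouse from its group mean were compared between the 10 RNAs over the 12 mice. Of 45 pairs, 13 had an unadjusted p under 0.05 and 5 an adjusted p under 0.05 in an exact two-sided permutation test within groups, whose smallest possible p is 0.000772. These 5 pairs had an adjusted p of 0.0347 each for Pearson's r, and were Meg3 and Rian (r = 0.90, rho = 0.90), Meg3 and Snhg11 (r = 0.90, rho = 0.92), Rian and Snhg11 (r = 0.90, rho = 0.97), Meg3 and Miat (r = 0.81, rho = 0.83) and Rian and Snhg14 (r = 0.79, rho = 0.87). Unadjusted permutation p-values of Pearson's r were 0.00154, 0.00386, 0.000772, 0.00309 and 0.00386 in the same order, and those of rho were 0.00154, 0.00309, 0.000772, 0.0054 and 0.00231.

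Without the 2 mice farthest from the median, r was 0.91, 0.89, 0.85, 0.85 and 0.68 in that order. Within the 6 controls r was 0.94, 0.92, 0.99, 0.90 and 0.91, and within the 6 CBP-ifKOs 0.95, 0.87, 0.84, 0.94 and 0.80, where no pair passed after adjustment and 36 permutations allow no p below 0.0278. So a mouse high in Meg3 for its group was also high in Rian, Snhg11 and Miat. Meg3 and Snhg14 had r = 0.89, with an adjusted p of 0.0637 in the same permutation test, which does not pass, but by Spearman's rho this pair (rho = 0.86) and Snhg11 with Snhg14 (rho = 0.87) passed at an adjusted p of 0.0496 each. The points share library composition, which normalization adjusts only on average.

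Mirg was little correlated with the other RNAs of its region. Its r was -0.02 with Meg3 and 0.13 with Rian. Mirg had 793 to 1124 counts per mouse and the smallest spread between mice (SD 0.058). Counting error can hide a shared variation in so small a spread, and its share was not tested. Malat1 and Neat1 had r = -0.41. Gm26644 had r = -0.85 with Snhg11 (adjusted p = 0.0645 in the same permutation test) and -0.72 with Meg3 (0.165), and neither pair passed. Without the 2 mice farthest from the median, r was -0.74 and -0.54.

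**Figure D5:**
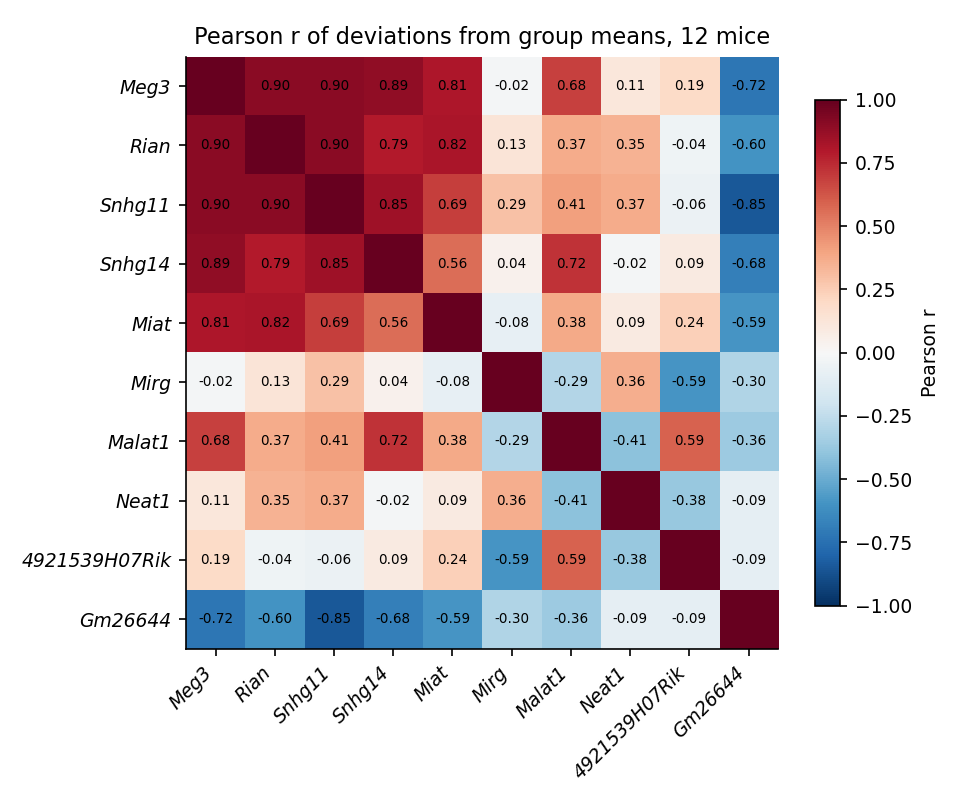
Pearson's r between deviations from group means of log2 CPM (12 mice) for each pair of RNAs, with the diagonal set to 1. Meg3, Rian, Snhg11, Snhg14 and Miat form a block from 0.56 to 0.90, and the row of Mirg lies between -0.59 and 0.36.

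The small RNAs inside these genes had few counts, which does not measure their level. Reads of low mapping quality were dropped, some of these genes share exonic bases with their host, and the library selection is not given. The file lists 208 small nucleolar RNA genes inside Snhg14, of which 16 had any count, with 679 counts summed over the 12 libraries. For the 14 microRNA genes inside Mirg the sum was 563 counts in 8 genes. For the 13 small nucleolar RNA genes inside Rian it was 9 counts in 1 gene, and for its 4 microRNA genes 58 in 3. Of the 2 small nucleolar RNA genes inside Snhg11, 1 had 596 counts.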

How the data were processed

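Hippocampal RNA of 12 mice was sequenced as 50 bp single-end reads, in 2 runs per mouse that were merged into 1 library. The authors trimmed reads with Trim Galore 0.6.4, checked them with FastQC 0.11.8, used STAR 2.6.1 for alignment to mm10, dropped mapping qualities of 10 or less, and ran Rsubread on the exons of Ensembl 99. What they deposited is a matrix of unnormalized counts for each gene. The deposited table also gives another value, the length of each gene in bases, which was used for levels per kilobase. The authors' own tests used DESeq2 1.30.1. The library selection and the strand setting are not given in the sources used here.

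Groups were taken from the sample labels. Counts were filtered by expression (filterByExpr), normalized by TMM and compared with edgeR 4.0.16 in R 4.3.3 (quasi-likelihood F test, Benjamini-Hochberg adjustment over all genes tested, threshold 0.05). Genotypes were compared within 6 SC mice, within 6 EE mice and, with 1 coefficient per group, over 12 mice, where housing and the interaction were also tested. Each CPM uses the TMM-scaled library size. Log2 CPM used a prior count of 2. Deviations from group means were compared by exact permutation within groups. A floor of 3 counts corresponds to 0.0801 to 0.112 CPM and covers counting error only, whereas standard errors and 95% intervals of log2 differences include the spread between mice. Symbols, positions, types and overlaps came from the GENCODE annotation of GRCm38, with 55144 of 55471 genes matched, and promoters came from RefSeq (GRCm38.p6).

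The 10 RNAs and all gene lists were chosen with earlier results of these data known. Genes named in the text are the 10 RNAs, their coding neighbours (the 2 nearest on each side of 4921539H07Rik and Gm26644, the nearest on each side of the others), the listed genes, of the further long noncoding RNAs those with the smallest p whose genotypes do not overlap (up to 3 in each direction), and the 3 genes most like each of the chosen RNAs. Ttr and the other listed genes that passed the threshold are named because of their values. Alternatives were DESeq2 1.42.0, DESeq2's size factors, no filter or 1 CPM in 3 mice, replicate number as a block, all 12 mice in each fit, halved CBP-ifKO counts, a prior count of 0.5, and each mouse left out. Library totals without TMM were an alternative chosen after seeing the data. The procedure was tested on simulated data with known changes. Replicates are separate mice of 1 cohort.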

Additional observations from a re-analysis of the deposited data

How the results depend on the processing

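Between genotypes, the number of genes called in SC (968) was 1512 with no filter on low counts and 399 to 1908 with 1 mouse left out. In EE (805) it was 1262 by DESeq2, 1677 with no filter, 1293 with all 12 mice in the fit, and 285 to 1016 with 1 mouse left out. Of the 8 RNAs not chosen by their values, DESeq2 and no filter each called 1 in SC (Miat), and leaving out a mouse called 0 to 1 (Snhg11, without Control SC 2). In EE, library totals without TMM called 0, and leaving out a mouse 0 to 1. Over all mice (2), leaving out a mouse called 1 to 2, and DESeq2 and the filter of 1 CPM in 3 mice each called 3 (with Snhg11). Of the coding neighbours, 0 to 2 were called in SC, 0 to 1 in EE and 1 to 4 over all mice with 1 mouse left out.

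For housing in controls, DESeq2 called 15 genes, no filter 145 and fits without 1 mouse 0 to 5, with 0 to 1 of the 8 RNAs (Neat1, without Control EE 1). In CBP-ifKOs (2 genes) DESeq2 called 50, no filter 247 with 1 of the 8 RNAs (Malat1), halved counts 0, and fits without 1 mouse 0 to 10. Over both genotypes (30 genes) DESeq2 called 156, no filter 334 with 1 of the 8 (Malat1), and fits without 1 mouse 7 to 42, with 0 to 1 of the 8 (Neat1). The interaction had 110 calls with no filter.

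Differences near 0 changed sign. Without TMM, Neat1 in SC was 0.02 and Meg3 over all mice 0.02, and with no filter Snhg14 in EE was -0.00. With 1 mouse left out, log2 differences between genotypes ranged from -0.09 to 0.16 for Meg3 and from -0.05 to 0.21 for Malat1 in SC, from -0.06 to 0.12 for Snhg14 in EE, and over all mice from -0.10 to 0.03 for Meg3 and from -0.01 to 0.11 for Neat1. Those for housing in controls ranged from -0.13 to 0.13 for Meg3, from -0.01 to 0.05 for Mirg and from -0.14 to 0.05 for Snhg14. In CBP-ifKOs Mirg ranged from -0.07 to 0.00, and over both genotypes 4921539H07Rik from -0.06 to 0.12 and Mirg from -0.03 to 0.01. The interaction ranged from -0.01 to 0.06 for Rian, from -0.10 to 0.17 for Malat1 and from -0.18 to 0.00 for Snhg14. The cause of these changes was not tested.

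The groups share replicate numbers, and r between the deviations of same-numbered mice ranged from -0.047 to 0.305. Between Control EE and CBP-ifKO EE it was 0.114, 0.124 and 0.034, each above the r of differently numbered mice. Between CBP-ifKO SC and CBP-ifKO EE it was -0.043, 0.086 and -0.046. Control SC 3 correlated about as well with Control EE 1 (0.038) as with Control EE 3 (0.034). Whether the numbers stand for a pairing or a shared batch was not tested. With the replicate number as a block, 1041 genes were called in SC, 1089 in EE, 3374 over all mice, 0 for housing in controls, 17 in CBP-ifKOs, 48 over both genotypes and 0 for the interaction. Among the 8 RNAs the block changed no call. With group means of log2 CPM from a prior count of 0.5, 5 pairs of RNAs again passed. Genes near the floor of 3 counts, such as Pax2, are limited by depth.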
